A study of Mus musculus with 12 samples.

Results

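Cholesterol and fatty acid synthesis were followed through 26 genes that SREBP transcription factors are known to drive, in the epidermis of newborn mouse skin, measured by RNA sequencing. The genes were taken by an exact match of a listed symbol to the gene names of the deposited count table, which found all 26 among 46078 genes. They fall into a sterol branch of 18 enzymes and carriers, a fatty acid branch of 5 enzymes and 3 regulators. The study set out to find how losing the polarity genes Llgl1 and Llgl2 changes expression in the epidermis, with and without removal of a single Trp53 allele. It sequenced 12 libraries in 4 groups of 3. Every mouse, controls included, bore K14-Cre, in which the Krt14 promoter drives the recombinase in basal keratinocytes, so that their descendants carry the deletion too. Control mice had K14-Cre alone. Llgl cKO mice had K14-Cre/Llgl1/2 flox/flox, Trp53 het mice had K14-Cre/Trp53 +/flox, and Llgl cKO Trp53 het mice combined the floxed alleles of both, that is Llgl1/2 flox/flox with Trp53 +/flox, and the same K14-Cre. Recombination is thus limited to cells in which the K14 promoter has been active, so melanocytes and immune cells of the epidermis keep their alleles. The design text counts 3 newborn mice per group and gives no litter, sex or batch.

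SREBP proteins, encoded by Srebf1 and Srebf2, are made as membrane proteins of the endoplasmic reticulum. When sterols are scarce they travel to the Golgi apparatus and are cut, and the freed part enters the nucleus and binds sterol regulatory elements, usually beside sites for NF-Y and Sp1. When sterols are plentiful, Insig1 holds them back. In skin the epidermis makes its own cholesterol and fatty acids for the barrier lipids of the stratum corneum, and sebaceous glands are a second place of strong lipid synthesis.

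Promoters of 5 genes are shown first, because all 26 genes were grouped for one kind of transcriptional control. RefSeq promoter windows on GRCm38.p6, 250 bases before to 50 after each annotated start, were matched by symbol for 22 of the 26 genes, and Fdps, Sqle, Stard4 and Fdft1 were not matched. Capitals mark exact matches, on either strand, to TCACNCCAC (a sterol regulatory element core), CCAAT (the NF-Y box), GGGCGG (an Sp1 box) and CACGTG (an E-box). Only bases upstream of annotated exons are printed, 5′ to 3′ on the strand of the gene. Hmgcs1, the synthase at the start of the mevalonate pathway (chr13:119690101-119690350, plus strand), was the only matched gene whose window held the sterol element core. Insig1 (chr5:28071162-28071362, plus strand) is a feedback regulator. Fasn (chr11:120824548-120824797, minus strand), Acss2 (chr2:155517793-155517947, plus strand) and Elovl6 (chr3:129532136-129532256, plus strand) are the fatty acid genes with the smallest p-values against Trp53 het.
Hmgcs1: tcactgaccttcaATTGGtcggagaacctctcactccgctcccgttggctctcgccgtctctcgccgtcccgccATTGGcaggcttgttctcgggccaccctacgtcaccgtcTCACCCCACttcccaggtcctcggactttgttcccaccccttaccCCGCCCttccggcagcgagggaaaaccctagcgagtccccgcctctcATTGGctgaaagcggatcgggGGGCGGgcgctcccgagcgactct
Insig1: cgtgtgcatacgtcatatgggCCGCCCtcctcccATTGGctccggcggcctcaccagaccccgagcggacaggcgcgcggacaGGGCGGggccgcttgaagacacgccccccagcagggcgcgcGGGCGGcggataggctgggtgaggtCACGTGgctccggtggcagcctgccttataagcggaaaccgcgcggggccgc
Fasn: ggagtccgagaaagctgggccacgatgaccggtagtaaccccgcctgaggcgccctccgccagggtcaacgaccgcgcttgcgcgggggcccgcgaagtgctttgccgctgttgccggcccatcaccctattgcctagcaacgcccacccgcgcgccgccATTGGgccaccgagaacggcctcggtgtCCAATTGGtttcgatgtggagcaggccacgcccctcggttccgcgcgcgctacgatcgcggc
Acss2: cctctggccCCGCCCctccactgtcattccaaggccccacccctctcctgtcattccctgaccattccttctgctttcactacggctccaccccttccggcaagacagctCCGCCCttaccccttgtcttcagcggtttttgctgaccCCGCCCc
Elovl6: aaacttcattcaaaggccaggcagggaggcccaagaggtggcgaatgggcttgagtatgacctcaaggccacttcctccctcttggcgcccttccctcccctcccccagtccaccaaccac
In Fasn, NF-Y matches on opposite strands overlap each other, and no other motif overlapped another in these 5 stretches. A CCAAT box was found in the windows of 20 of 22 matched genes (90.9%), against 42.5% of tested genes with a window and 37.4% of all windows in the table. Acaca and Elovl6 were the matched genes without it. The match of Acss2 includes bases of its window that are not printed above. An Sp1 box was found for 18 of 22 genes (81.8%), against 67.5% of tested genes. Acaca, Elovl6, Fasn and Pmvk held none. The Acaca window began at chr11:84195188, inside the gene, whose annotated start on the plus strand is 84129672. Neither box was therefore sought at that start. The E-box was found for 4 genes (Dhcr7, Hsd17b7, Insig1 and Sc5d; 18.2%, against 11.6%), and the sterol element core for Hmgcs1 alone (4.55%, against 1.4%). The whole Elovl6 window held none of the 4 letter patterns. These matches describe letters in a window and are not evidence of binding.

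The libraries held 6738720 to 14509507 counts, and 14582 genes passed the filter on low counts, all 26 genes among them. Levels are given in CPM, which are counts scaled to a common library size. The epidermal markers Krt5 (7395 to 10770 CPM) and Krt10 (21730 to 45000 CPM) were very high in every library, while the endothelial markers summed to at most 1.26 CPM. Llgl2 was at 65.4 to 109.9 CPM in the libraries with intact Llgl genes and at 6.12 to 12.4 CPM in the Llgl cKO and Llgl cKO Trp53 het libraries. Llgl1 was not lower there (187 to 280.1 against 115 to 173 CPM), and counts over the whole gene do not check that deletion. Trp53 was at 109 to 130.5 CPM in Control, at 61.8 and 60.9 CPM in Trp53 het 1 and 2 and at 115 CPM in the library labelled Trp53 het 3, which therefore goes against its label. In Llgl cKO Trp53 het 1 to 3 it was at 98.3, 67.8 and 65.9 CPM, so replicate 1 lay nearer to Control than the other 2 did, and results that rest on it are also given without it. By Xist and Y-linked counts 5 libraries were female and 7 male. Llgl cKO 1, Llgl cKO Trp53 het 1 and the library labelled Trp53 het 3 were each the only female of their group. Control 3 and the library labelled Trp53 het 3 stood apart in hair follicle markers (scores of 0.08 and 0.58, against 1.69 to 2.30 in the other 4 libraries of those groups). Results were therefore also computed without both.

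Per kilobase of annotated exon, the 26 genes ranged from 1.16 CPM per kb for Acss2, which activates acetate, to 70.2 CPM per kb for Acly, which makes cytosolic acetyl-CoA from citrate. The lengths join every annotated exon of a gene (10163 bases for Acss2), so the order also depends on the annotation. Acly and Hmgcs1 (68.6 CPM per kb) headed the order, followed by Pmvk, the phosphomevalonate kinase (48.8 CPM per kb) and the regulator Srebf2 (41.9 CPM per kb). Ebp, Sqle, Mvk and Fasn lay at 32.9 to 35.45 CPM per kb and differed by less than their spread between mice. At the low end were Acaca, the carboxylase that makes malonyl-CoA (3.66 CPM per kb), Idi1 (3.20 CPM per kb) and Acss2. Counts behind these values ran from 36 for Idi1 in its lowest library to 5045 for Fasn in its highest. The within-group SD on the log2 scale was smallest for Srebf2 (0.14), Sc5d (0.14) and Fasn (0.14) and largest for Idi1 (0.60) and Dhcr7 (0.45), against a median of 0.27 over all tested genes.

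**Figure D1:**
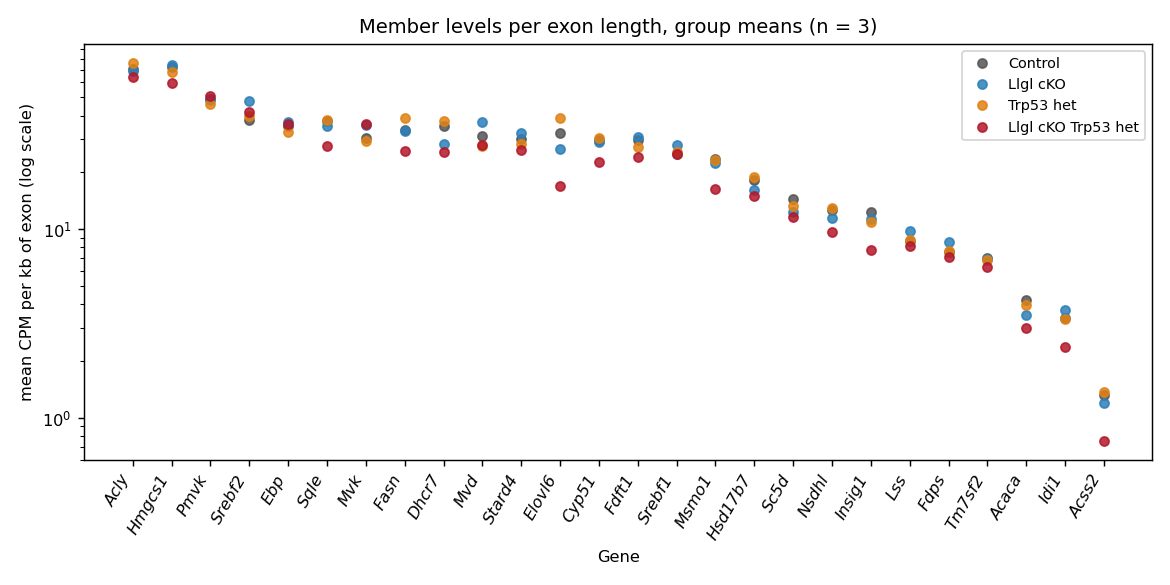
Group means (n = 3) in CPM per kb of exon on a log axis, with the 26 genes ordered by their mean over 12 libraries. The order runs from Acly at 70.2 to Acss2 at 1.16 CPM per kb. The Llgl cKO Trp53 het points lie lowest for every fatty acid gene and for most sterol genes, but not for Pmvk or Mvk.

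In the fatty acid branch 1 of 5 genes passed the test: Elovl6, the elongase that lengthens palmitate, was lower in Llgl cKO Trp53 het epidermis than in Control and in Trp53 het. Elovl6 stood at 195, 229.7 and 199.6 CPM in Control 1 to 3, at 118, 199 and 197 CPM in Llgl cKO, at 269, 246 and 231 CPM in Trp53 het and at 121, 104 and 102 CPM in Llgl cKO Trp53 het. The Llgl cKO Trp53 het libraries were below every Control and Trp53 het library, and Llgl cKO 1 lay inside their range. Elovl6 was 1.91-fold lower than in Control (log2 change -0.93, SE 0.18, 95% interval -1.33 to -0.53; adjusted p = 0.0401 by edgeR's quasi-likelihood test with Benjamini-Hochberg adjustment over all tested genes, the source of every adjusted p below unless DESeq2 is named). Against Trp53 het it was 2.28-fold lower (log2 change -1.19, SE 0.18, interval -1.59 to -0.79; adjusted p = 0.0141). A gene is called here at an adjusted p below 0.05. In bulk tissue, fewer cells of a type and less RNA per cell cannot be told apart. The p-values measure the spread between these libraries.

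The Elovl6 call against Control was close to the threshold. It was lost on leaving out Control 1 (adjusted p = 0.101), Control 2 (0.161), Trp53 het 1 (0.0535) or Trp53 het 2 (0.0662), and likewise without Llgl cKO Trp53 het 1 (0.0552), 2 (0.164) or 3 (0.186), with log2 changes of -1.01 to -0.85 in these 7 fits. Against Trp53 het it was lost without Trp53 het 1 (0.0711) or Trp53 het 2 (0.0603), and likewise without Llgl cKO Trp53 het 2 (0.075) or 3 (0.0999), with log2 changes of -1.21 to -1.13 in these 4 fits. Without Llgl cKO Trp53 het 1 it was kept (-1.27, adjusted p = 0.032). Without the library labelled Trp53 het 3 it was -1.24 (adjusted p = 0.022). Without both that library and Control 3 it was -0.96 against Control (adjusted p = 0.017) and -1.24 against Trp53 het (adjusted p = 0.00429).

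Fasn, the fatty acid synthase that builds palmitate, was at 409.8, 344 and 353 CPM in Control, 347, 339 and 402 CPM in Llgl cKO, 461, 438 and 377 CPM in Trp53 het and 319, 276 and 261 CPM in Llgl cKO Trp53 het. Acss2, the acetyl-CoA synthetase, was at 12.1, 13.9 and 14.2 CPM in Control, 11.1, 12.7 and 12.5 CPM in Llgl cKO, 13.9, 14.5 and 13.02 CPM in Trp53 het and 10.75, 6.66 and 5.61 CPM in Llgl cKO Trp53 het. For both genes all 3 Llgl cKO Trp53 het libraries were below all 9 others, a pattern shown by 2 of 26 genes (7.69%) and by 2.18% of tested genes. Fasn did not pass the test against Trp53 het (log2 change -0.58, SE 0.13, adjusted p = 0.0604) or against Control (-0.37, SE 0.13, adjusted p = 0.233). The Trp53 het comparison passed without the library labelled Trp53 het 3 (-0.66, adjusted p = 0.0423) and without both it and Control 3 (-0.66, adjusted p = 0.0176). DESeq2 also called it (adjusted p = 0.00151). Acss2 did not pass against Control (log2 change -0.81, SE 0.22, adjusted p = 0.108) or Trp53 het (-0.85, SE 0.22, adjusted p = 0.084). Without Llgl cKO Trp53 het 1, its highest library of that group, these were -1.13 (adjusted p = 0.0207) and -1.17 (adjusted p = 0.0186), and DESeq2 called both (adjusted p = 0.0202 and 0.0105).

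The other fatty acid genes, Acaca and Acly, did not pass the test in any comparison. Acaca was at 68.2, 65.8 and 81.25 CPM in Control and 57.3, 39.5 and 55.6 CPM in Llgl cKO Trp53 het, with no overlap (log2 change -0.50, SE 0.19, adjusted p = 0.264). Its Llgl cKO libraries, at 45.6, 60.35 and 73.9 CPM, overlapped both groups. Acly was at 375, 376 and 375 CPM in Control and 346, 364 and 309.8 CPM in Llgl cKO Trp53 het (log2 change -0.14), and Llgl cKO 3 reached 443 CPM, the highest of all 12. The fitted changes of all 5 fatty acid genes in Llgl cKO Trp53 het were below 0 against Control, with a median of -0.50, and against Trp53 het, with a median of -0.58, though only that of Elovl6 was called. The medians over all tested genes were near 0 (-0.01 and 0.001).

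**Figure D2:**
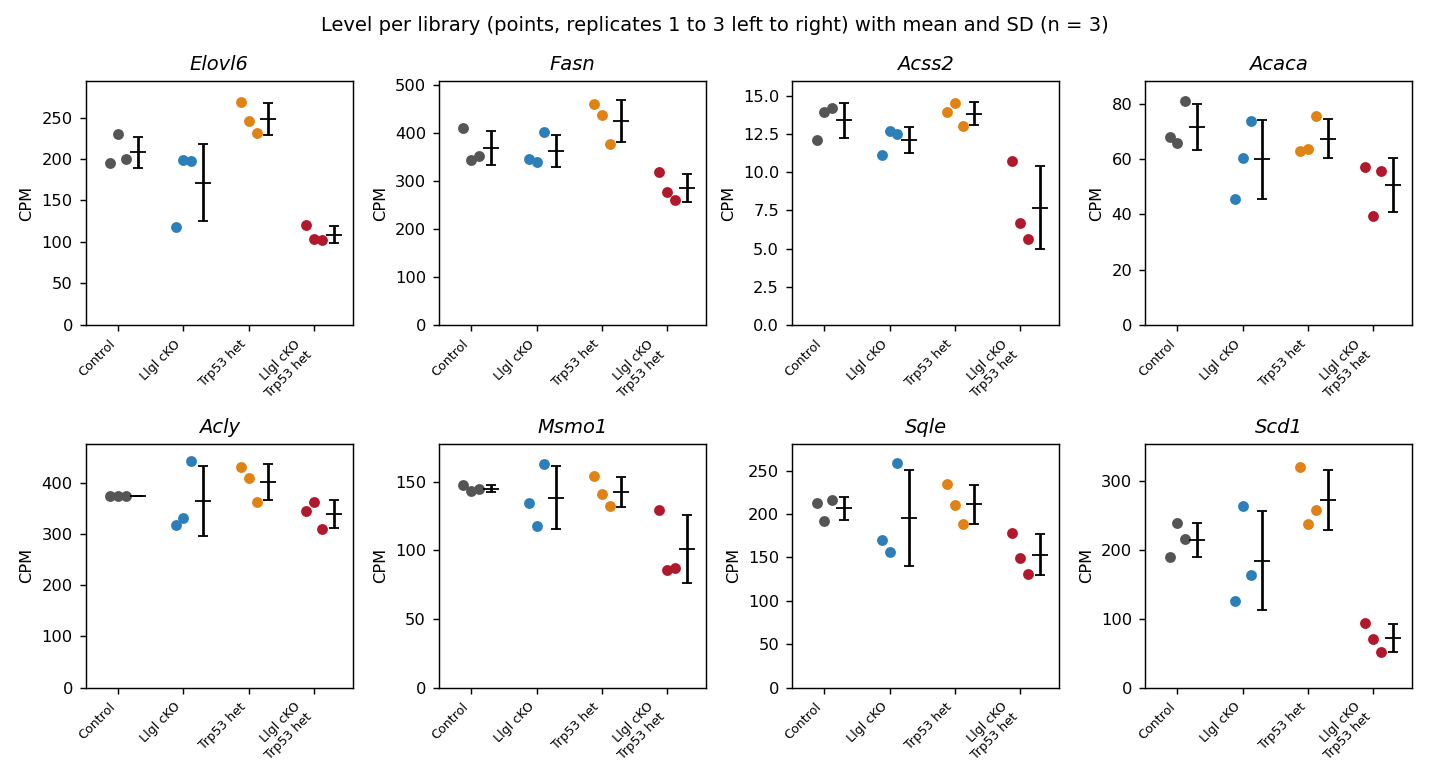
CPM of the 5 fatty acid genes, the sterol genes Msmo1 and Sqle and the related gene Scd1 in each library (points, replicates 1 to 3 from left to right), with mean and SD (n = 3), on axes that start at 0. Elovl6 lies at 102 to 121 CPM in Llgl cKO Trp53 het, below the 195 to 269 CPM of Control and Trp53 het.

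Over the 26 genes, 1 was called lower and 0 higher in Llgl cKO Trp53 het against Control, where edgeR called 1.25% of all tested genes. Against Trp53 het, 1 was called lower and 0 higher, where 1.36% of all genes were called. At an unadjusted p below 0.05, 8 genes were lower and 0 higher against Control (13.9% of all genes passed in either direction), and 6 were lower and 0 higher against Trp53 het (15.4% of all genes). Single libraries moved these counts: against Control there were 13 without Llgl cKO Trp53 het 1, 4 without Control 3 or Llgl cKO Trp53 het 2, and 5 without Control 1 or Llgl cKO Trp53 het 3. Against Trp53 het there were 11 without Llgl cKO Trp53 het 1, 9 without Llgl cKO 3, and 4 without Trp53 het 1, Trp53 het 2 or Llgl cKO Trp53 het 3. DESeq2 called 2 genes (Elovl6 and Acss2) and 3 genes (Elovl6, Fasn and Acss2), all lower. Without Llgl cKO Trp53 het 1, edgeR called 2 genes against Control (Acss2 and Msmo1) and 3 against Trp53 het (Acss2, Elovl6 and Msmo1). The median log2 change was -0.29 against Control and -0.22 against Trp53 het (-0.39 without Llgl cKO Trp53 het 1), with 21 of 26 genes below 0 in each, and 51% and 49.8% of all genes below 0. These comparisons share the Llgl cKO Trp53 het libraries. The libraries of 8 genes lay wholly below Control (Acaca, Acly, Fasn, Sqle, Acss2, Elovl6, Msmo1 and Sc5d), where 9.2% of all genes did so, and 0 lay wholly above, where 7.87% did. Against Trp53 het, 6 lay wholly below (the same without Acly and Sc5d), where 10.7% of all genes did, and 0 above, where 9.75% did.

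In the sterol branch no gene passed the test, and most fitted differences in Llgl cKO Trp53 het were below 0. Against Control 15 of 18 were below 0, with a median log2 change of -0.28 and a range of -0.53 to 0.26. edgeR called 0 genes, where 1.25% of all genes were called. An unadjusted p below 0.05 was found for 3 of 18 (Msmo1, Sc5d and Sqle), near the 13.9% of all genes. DESeq2 called 0 as well. Msmo1, an oxidase that removes methyl groups from sterols, was at 147.5, 143 and 145 CPM in Control, 134, 118 and 163 CPM in Llgl cKO, 154, 141 and 132.5 CPM in Trp53 het and 129, 85.6 and 87.5 CPM in Llgl cKO Trp53 het. Its Llgl cKO Trp53 het libraries were below Control and Trp53 het but overlapped Llgl cKO. Its log2 change against Control was -0.52 (SE 0.17, adjusted p = 0.176), and it was called without Llgl cKO Trp53 het 1 (-0.74, adjusted p = 0.0454). Sqle, the squalene epoxidase, was at 213, 192 and 216 CPM in Control, 171, 157 and 259 CPM in Llgl cKO, 234, 211 and 189 CPM in Trp53 het and 179, 149 and 131.5 CPM in Llgl cKO Trp53 het. It was likewise below Control and Trp53 het in all 3 libraries (log2 change against Control -0.43, SE 0.19, adjusted p = 0.328), while Llgl cKO overlapped all groups. Sc5d, a desaturase late in the pathway, was at 66.55, 68.8 and 76.5 CPM in Control and 65.8, 53.3 and 51.2 CPM in Llgl cKO Trp53 het, which touched without overlapping (log2 change -0.32, SE 0.12, adjusted p = 0.27).

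None of the early sterol enzymes, from acetyl units to squalene, passed the test. Hmgcs1 was at 333 ± 30.2 CPM in Control, 339.7 ± 53.3 CPM in Llgl cKO, 314.5 ± 26.8 CPM in Trp53 het and 274 ± 58.4 CPM in Llgl cKO Trp53 het (SD, n = 3). Mvk, the mevalonate kinase, went the other way, at 81.2 ± 6.13, 95.7 ± 22.9, 78.8 ± 5.73 and 97.2 ± 14.9 CPM in the same order, with an unadjusted p of 0.0431 for the average Llgl difference (log2 change 0.27, adjusted p = 0.256). Pmvk was at 79.4 to 87.5 CPM in group means, with SDs of 14.4 to 16.5 CPM. Mvd, the decarboxylase, was at 36.2 to 87.1 CPM over the libraries, and Llgl cKO Trp53 het alone spanned 36.2 to 77.4 CPM. Idi1, the isomerase, was at 5.29 to 20.6 CPM and Fdps, which makes farnesyl diphosphate, at 20.2 to 46.1 CPM. In both the 3 mice of a group differed as much as the groups did. Fdft1, the squalene synthase, had group means of 102.5 to 130.5 CPM with SDs up to 30.0 CPM.

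Beyond squalene, Cyp51, the lanosterol demethylase, was at 131.5 ± 9.54 CPM in Control and 101 ± 29.5 CPM in the Llgl cKO Trp53 het libraries (SD, n = 3). Its log2 change against Trp53 het was -0.42 (unadjusted p = 0.0493, adjusted p = 0.324). Lss, the lanosterol synthase, was at 73.0 to 126 CPM over the libraries. Nsdhl, which acts with Msmo1, was at 32.1 to 40.7 CPM in Control and at 37.8, 22.0 and 23.1 CPM in Llgl cKO Trp53 het, so that 1 of its 3 libraries stayed within the Control range. Hsd17b7, Tm7sf2 and Ebp, a ketoreductase, a reductase and an isomerase of the same stretch, overlapped between all groups. Dhcr7, the last reductase of the route, was at 283, 195 and 138 CPM in Control, 176, 136 and 179.8 CPM in Llgl cKO, 296, 226 and 131 CPM in Trp53 het and 129, 195 and 121.5 CPM in Llgl cKO Trp53 het. The mice of Control and of Trp53 het differed from each other more than the group means did. Stard4, which carries cholesterol between membranes, was at 139 to 182 CPM in 11 libraries and at 232.5 CPM in Llgl cKO 3.

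None of the 3 regulators passed the test. Srebf2, the SREBP of the sterol branch, was at 261, 246 and 308.5 CPM in Control, 337, 318 and 382 CPM in Llgl cKO, 301, 252 and 307 CPM in Trp53 het and 301, 292.5 and 303 CPM in Llgl cKO Trp53 het. All 3 Llgl cKO libraries were above every other library (log2 change against Control 0.35, SE 0.13, unadjusted p = 0.0192), but the difference did not pass the test (adjusted p = 0.655). Srebf1, the SREBP of the fatty acid branch, was at 119.5 to 178 CPM, and its log2 change in Llgl cKO Trp53 het against Control was 0.01. Insig1, a target and brake of the pathway, was at 36.95, 32.1 and 45.5 CPM in Control, 41.9, 29.7 and 33.0 CPM in Llgl cKO, 33.6, 25.9 and 41.2 CPM in Trp53 het and 36.5, 17.85 and 17.4 CPM in Llgl cKO Trp53 het. Llgl cKO Trp53 het 2 and 3 were the lowest of the 12 and replicate 1 was within the Control range (log2 change -0.67, SE 0.29, adjusted p = 0.32). Gene counts measure messenger RNA only, not the cleavage that activates the SREBP proteins.

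With Llgl1 and Llgl2 targeted alone, none of the 26 genes was called. Against Control edgeR called 0 (0.226% of all genes called), 1 had an unadjusted p below 0.05 (Srebf2, higher; 6.31% of all genes), and DESeq2 called 0. The median log2 change was -0.02, with 11 genes above 0 and 15 below. This balance moved with single libraries: 8 were below 0 without Llgl cKO 2 (median 0.09) and 21 without Llgl cKO 3 (median -0.13). The count at an unadjusted p below 0.05 was 0 without Control 2, 2 without replicate 1 or 2 of Llgl cKO, and also 2 without Llgl cKO Trp53 het 1. After Srebf2, the smallest p-values belonged to Sc5d (log2 change -0.24, SE 0.12, adjusted p = 0.836) and Elovl6 (-0.28, SE 0.18, adjusted p = 0.919). The Elovl6 value rested on Llgl cKO 1 and was -0.07 without it. Losing a Trp53 allele alone also gave 0 calls by edgeR and by DESeq2, and 0 of 26 genes had an unadjusted p below 0.05, where 0% of all genes were called and 0.432% had an unadjusted p below 0.05. The median log2 change was -0.01, with 13 genes on each side of 0, and it ran from -0.06 to 0.03 when single libraries were left out. Of the 26 genes only Elovl6 lay wholly above Control, where 219 of 14582 genes did, and 0 lay wholly below, where 222 did. The smallest p-values were those of Fasn (log2 change 0.21, SE 0.13), Elovl6 (0.26, SE 0.18) and Sc5d (-0.14, SE 0.12), each with an adjusted p of 1. Because the library labelled Trp53 het 3 had Control-level Trp53, Elovl6 was also fitted without it (0.31, adjusted p = 1).

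Between Llgl cKO Trp53 het and Llgl cKO, 24 of 26 fitted changes were below 0 (50.2% of all genes), with a median of -0.26 and a range of -0.65 to 0.07. edgeR called 0 genes, as it called 0% of all genes, 4 had an unadjusted p below 0.05 (all lower; 5.12% of all genes), and DESeq2 called 0. The smallest p-values were those of Elovl6 (log2 change -0.65, SE 0.18, unadjusted p = 0.00395, adjusted p = 0.668), Acss2 (-0.65, SE 0.22, adjusted p = 0.747) and Msmo1 (-0.46, SE 0.17, adjusted p = 0.843). Fasn, Srebf2 and Acss2 lay wholly below Llgl cKO (5.13% of all genes did) and 0 genes lay wholly above (5.84% did). Leaving out Llgl cKO Trp53 het 1 moved the median to -0.43 and the count at an unadjusted p below 0.05 to 12. Leaving out Llgl cKO 3 moved them to -0.11 and 2. That count was also 2 without Llgl cKO Trp53 het 2 or 3, and 7 with the replicate block.

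**Figure D3:**
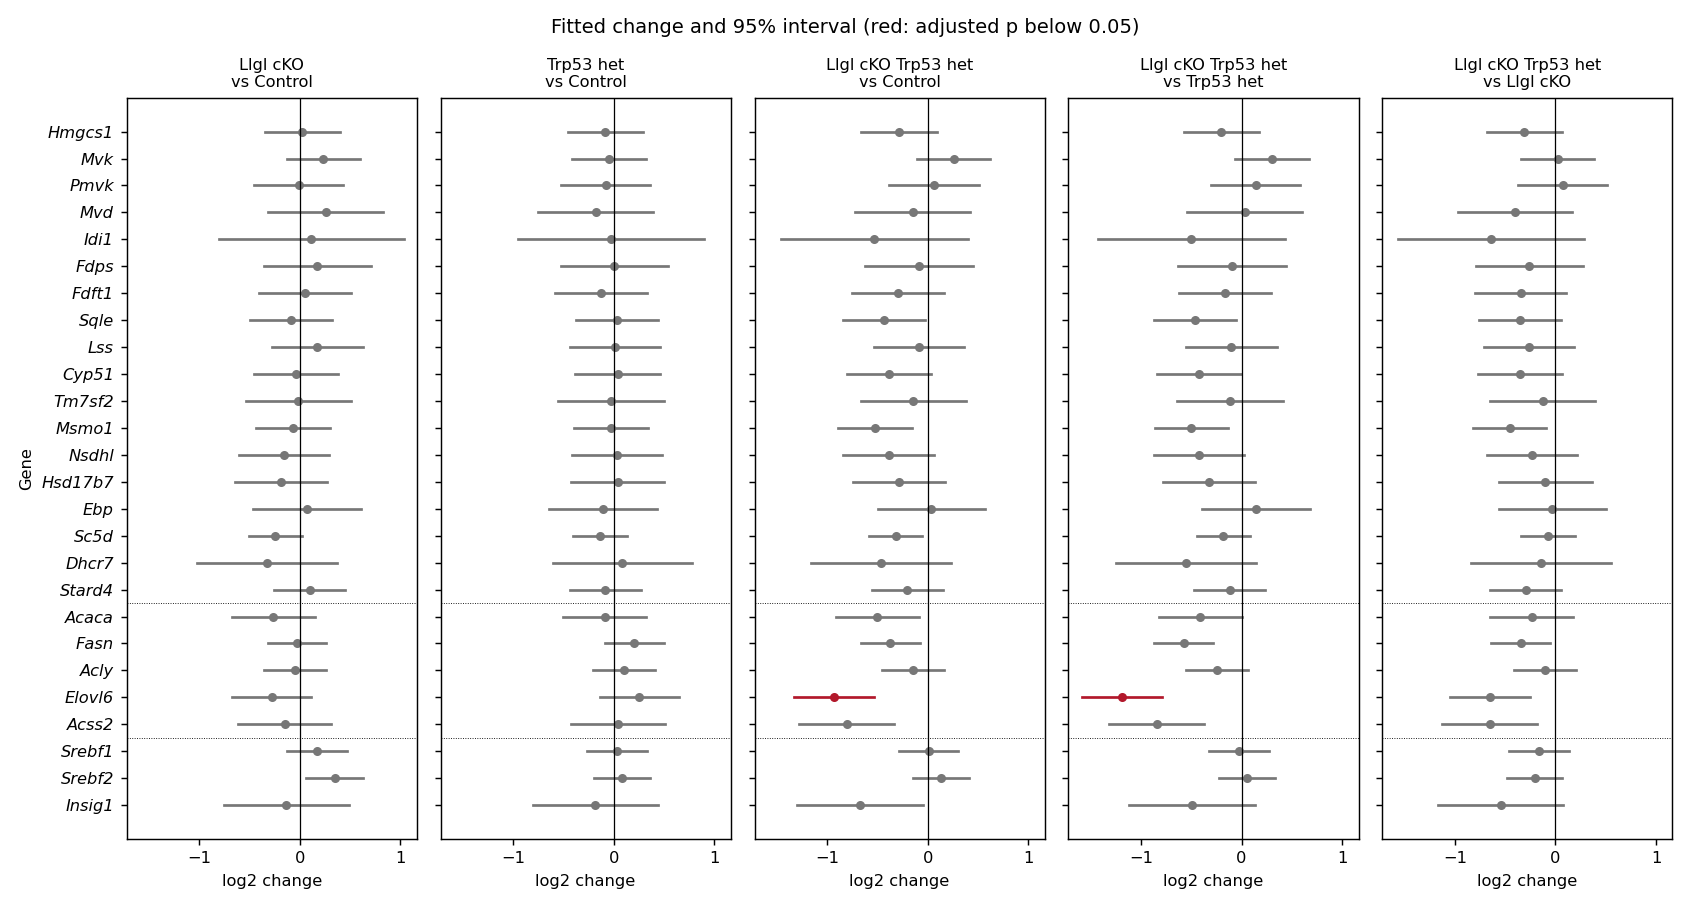
Fitted log2 changes with 95% intervals for the 26 genes in 5 comparisons, by branch, with dotted lines between the sterol, fatty acid and regulator genes. Elovl6, in red, is the only gene called, at -0.93 against Control and -1.19 against Trp53 het.

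The average Llgl difference set the 6 libraries with targeted Llgl genes against the 6 without, with equal weight to each group. Elovl6 was 1.66-fold lower (log2 change -0.73, SE 0.13, interval -1.02 to -0.45; adjusted p = 0.0147). It stayed below an adjusted p of 0.05 in all 20 alternative fits, with log2 changes of -0.80 to -0.63 and adjusted p-values of 2.05e-05 to 0.0474. This average joins unlike changes. For Llgl cKO against Control the Elovl6 change was -0.28 (-0.07 without Llgl cKO 1) and was not called. For Llgl cKO Trp53 het against Trp53 het it was -1.19, and the difference between these changes was not called. Elovl6 was the only one of 26 genes called in the average, where 3.33% of all genes were called. At an unadjusted p below 0.05, 6 genes were lower and 2 higher (Mvk and Srebf2), where 18.2% of all genes passed. These 8 became 4 on leaving out Llgl cKO Trp53 het 2, and 5 on leaving out Control 2, replicate 1 of Llgl cKO or replicate 3 of Llgl cKO Trp53 het. Acss2 (log2 change -0.50, SE 0.15, adjusted p = 0.106) and Fasn (-0.30, SE 0.09, adjusted p = 0.113) came next. DESeq2 called both, and without Llgl cKO Trp53 het 1 edgeR called Acss2 (-0.66, adjusted p = 0.0181). The median was -0.34 over the fatty acid branch and -0.07 over the sterol branch.

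The average Trp53 difference, across both Llgl states, gave 0 calls by edgeR and by DESeq2 (0% of all genes called) and 0 genes with an unadjusted p below 0.05 (2.17% of all genes). Without Llgl cKO Trp53 het 1 the latter count was 7 and the median -0.22, without Llgl cKO 2 it was 2, and without Llgl cKO 1 it was 1. All 26 fitted changes were below 0 under the main scaling, 25 under median-of-ratios scaling and 24 under upper-quartile scaling, where 52.8% of all genes were below 0. On leaving out single libraries 20 to 26 were below 0, with 20 without the library labelled Trp53 het 3. The median was -0.13 (-0.06 without Llgl cKO 3) and the lowest value -0.36, and several values lay close to 0. The smallest p-values were those of Msmo1 (-0.24, SE 0.12), Acss2 (-0.31, SE 0.15) and Insig1 (-0.36, SE 0.20), each with an adjusted p of 1. The interaction asked whether the Llgl difference changed when a Trp53 allele was also targeted. edgeR and DESeq2 called 0 genes (0% of all genes), and 3 of 26 had an unadjusted p below 0.05, where 2.94% of all genes did. These were Elovl6 (log2 difference of differences -0.91, SE 0.26, unadjusted p = 0.00427), Fasn (-0.55, SE 0.19, unadjusted p = 0.0129) and Acss2 (-0.69, SE 0.30, unadjusted p = 0.0415), each with an adjusted p of 1. So a larger Llgl difference in the Trp53 het background than in the wild-type one was not shown for any of the 26 genes. The median was -0.23. Without Llgl cKO Trp53 het 1 it was -0.40, with 8 genes at an unadjusted p below 0.05, without Llgl cKO 2 it was -0.35, and without Llgl cKO 3 it was -0.12.

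Individual mice of a group differed along the whole pathway. Llgl cKO 3 was the highest of its group for 18 of 26 genes (69.2%), and for 14 of 18 sterol genes, against 34.5% of all tested genes. Among them were Idi1 at 20.6 CPM against 10.1 and 8.46 CPM in replicates 1 and 2, Sqle at 259 CPM and Stard4 at 232.5 CPM. Llgl cKO Trp53 het 1 was the highest of its group for 18 of 26 genes (69.2%), against 35.1% of all genes. Fdps shows it at 41.9 CPM against 20.2 and 27.9 CPM, and Cyp51 at 134 CPM against 76.6 and 92.2 CPM. The mean log2 CPM of the sterol branch, set against its 12-library mean, was 0.05, -0.27 and -0.30 in Llgl cKO Trp53 het and 0.02, -0.16 and 0.35 in Llgl cKO, so the groups overlapped. That of the fatty acid branch was -0.19, -0.50 and -0.52 in Llgl cKO Trp53 het, against 0.13 to 0.19 in Control and 0.19 to 0.31 in Trp53 het. Llgl cKO 1 was at -0.25 there and overlapped Llgl cKO Trp53 het. Control 3 and the library labelled Trp53 het 3 were both the highest of their groups for 10 genes (38.5%, against 31.5% of all genes) and both the lowest for 6 (23.1%, against 30.7%), Dhcr7 and Ebp among the latter.

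**Figure D4:**
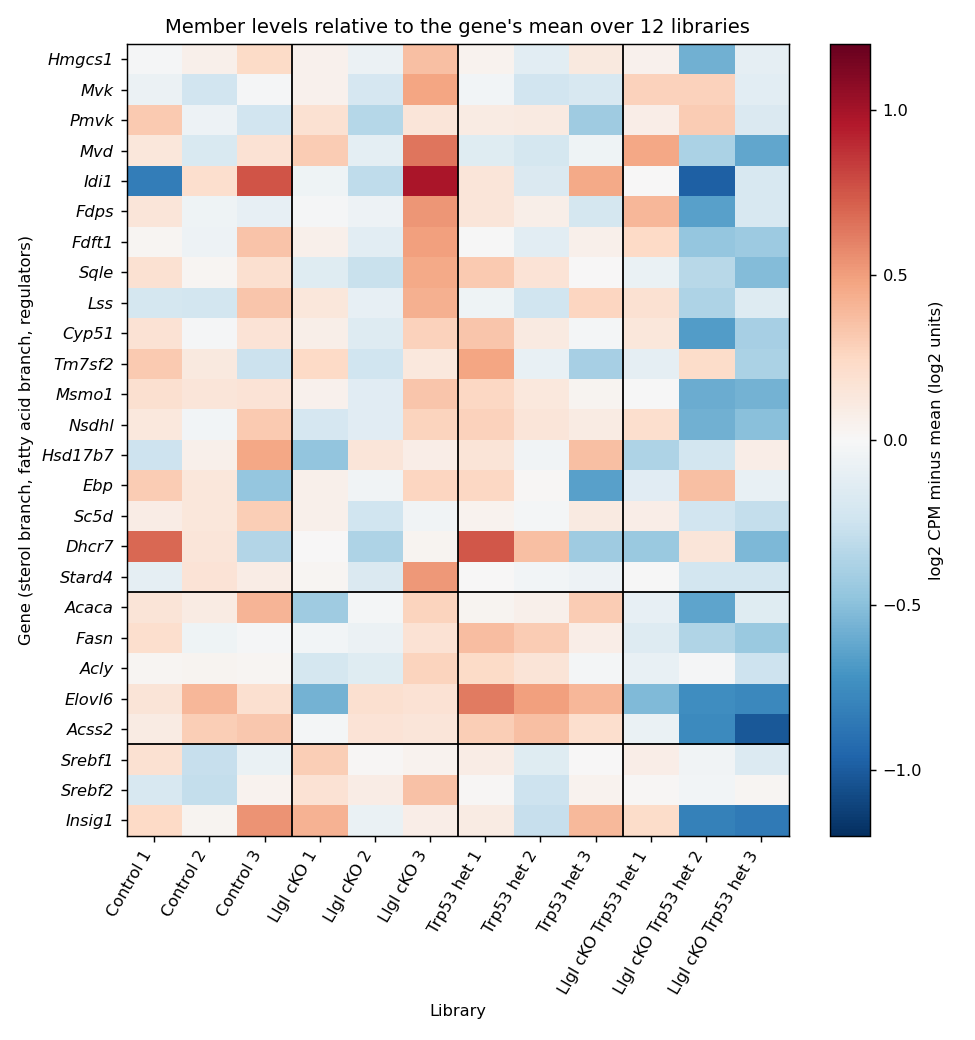
Log2 CPM of each of the 26 genes minus its mean over 12 libraries, with libraries in columns and genes in rows by branch. Llgl cKO Trp53 het 2 and 3 are mostly below the mean, replicate 1 of that group is nearer to it in the sterol rows, and Llgl cKO 3 is above it in most sterol rows.

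Genes around the pathway were taken from a list of 44, of which 42 were tested. Against Control in Llgl cKO Trp53 het 2 were called lower and 0 higher, against Trp53 het 2 lower and 1 higher, and in the average Llgl difference 2 lower and 0 higher. Over all tested genes 1.25%, 1.36% and 3.33% were called in these comparisons, and 2 of 42 is near the last of these shares. Scd1, the desaturase that turns saturated into monounsaturated fatty acids beside Elovl6, was at 189.7, 239 and 216 CPM in Control, 125, 264 and 163 CPM in Llgl cKO, 321, 238 and 258 CPM in Trp53 het and 93.1, 71.0 and 52.0 CPM in Llgl cKO Trp53 het. All 3 of the latter libraries were below the other 9 (log2 change against Control -1.58, SE 0.28, adjusted p = 0.0308, and against Trp53 het -1.92, SE 0.28, adjusted p = 0.00996). Soat1, which esterifies cholesterol for storage, was at 33.4, 54.8 and 49.0 CPM in Control, 21.9, 53.3 and 36.4 CPM in Llgl cKO, 60.5, 45.2 and 62.2 CPM in Trp53 het and 20.25, 14.6 and 11.9 CPM in Llgl cKO Trp53 het. It too was lowest in those 3 libraries (log2 change against Control -1.56, SE 0.32, adjusted p = 0.0436, and against Trp53 het -1.84, SE 0.32, adjusted p = 0.0288). In the average Llgl difference Scd1 was at -1.07 (adjusted p = 0.0151) and Soat1 at -1.07 (adjusted p = 0.0241). Npc2, which hands cholesterol out of lysosomes, was at 127, 114 and 111 CPM in Control, 129.9, 122.5 and 113 CPM in Llgl cKO, 97.9, 102 and 94.5 CPM in Trp53 het and 133, 149.5 and 137 CPM in Llgl cKO Trp53 het. All 3 Trp53 het libraries were below the other 9 and all 3 Llgl cKO Trp53 het libraries above. It was called higher in Llgl cKO Trp53 het against Trp53 het (log2 change 0.51, SE 0.10, adjusted p = 0.0374), and the change against Control was 0.25 (adjusted p = 0.277). The 8 genes that control SREBP processing had 0 calls in any comparison by edgeR. In the average Llgl difference 2 of them had an unadjusted p below 0.05, where 18.2% of all genes did. Thrsp had 0 counts in every library.

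These calls also hung on single libraries. The Scd1 call against Control was lost without Control 1 (adjusted p = 0.0744), Control 2 (0.142) or Trp53 het 2 (0.0535), and likewise without Llgl cKO Trp53 het 2 (0.127) or 3 (0.135), and that against Trp53 het without Trp53 het 1 (0.0541), and likewise without Llgl cKO Trp53 het 2 (0.0545) or 3 (0.0585). The Soat1 call against Control was lost without Control 1 (0.0816), Control 2 (0.17), Control 3 (0.0534), Llgl cKO 3 (0.0597), Trp53 het 1 (0.0575) or Trp53 het 2 (0.0662), and likewise without Llgl cKO Trp53 het 2 (0.173) or 3 (0.196). Against Trp53 het Soat1 was lost without Trp53 het 1 (0.104) or Trp53 het 2 (0.0603), and likewise without Llgl cKO Trp53 het 2 (0.123) or 3 (0.128). Its average Llgl call was lost without Control 2 (0.0703), Llgl cKO 3 (0.0553), Trp53 het 1 (0.0578), and likewise without Llgl cKO Trp53 het 2 (0.0676) or 3 (0.0696). The Npc2 call was lost without Control 2 (0.0662), Trp53 het 1 (0.139), 2 (0.122) or 3 (0.0609), and likewise without Llgl cKO Trp53 het 2 (0.144) or 3 (0.128). The average Llgl call of Scd1 held in all 20 alternative fits.

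Mean log2 scores of sebaceous gland, adipocyte and hair markers were also lowest in the Llgl cKO Trp53 het libraries. Within the other groups the sebaceous gland score did not always follow the fatty acid branch. In Llgl cKO 1 to 3 it was 0.14, 0.29 and -0.27, where the branch was at -0.25, 0.02 and 0.205. In Control the order of the replicates was opposite for the sebaceous gland and the branch, and in Trp53 het it was the same. Of 10 sebaceous gland markers, 2 were called lower in Llgl cKO Trp53 het against Control and 4 against Trp53 het, where 1.25% and 1.36% of all genes were called. Their summed level was 1388 to 2035 CPM in Control, 1509 to 1839 CPM in Llgl cKO, 1500 to 2060 CPM in Trp53 het and 1260 to 1658 CPM in Llgl cKO Trp53 het, which overlapped. Most of this sum was Krt79, at 1173 to 1861 CPM over the libraries, so the overlap is largely that of Krt79. The mean log2 score of the 10 markers was -0.87, -0.59 and -1.09 in Llgl cKO Trp53 het and -0.27 to 0.90 in the other 9 libraries. Of 11 hair shaft and inner root sheath markers, 10 were tested and 9 were called lower in both comparisons, with sums of 1304 to 6046 CPM in Control, 860 to 2860 CPM in Llgl cKO, 1924 to 4856 CPM in Trp53 het and 101.5 to 364 CPM in Llgl cKO Trp53 het. Of 7 adipocyte markers 2 were tested. The sum was 2.10 to 29.1 CPM in Control, 1.76 to 3.86 CPM in Llgl cKO, 2.94 to 17.54 CPM in Trp53 het and 0.33 to 0.85 CPM in Llgl cKO Trp53 het. The adipocyte-defining Adipoq was at most 0.24 CPM and Plin1 at most 0.14 CPM in any library, and Lep was at 0 in all but 1. Of 9 mitochondrial transcripts followed as a sign of RNA quality 6 were tested and 0 called by edgeR. In Llgl cKO Trp53 het against Control 2 had an unadjusted p below 0.05, both higher, where 13.9% of all genes did in either direction. They summed to 8110 to 12930 CPM in Control, 11160 to 13200 CPM in Llgl cKO, 11930 to 13370 CPM in Trp53 het and 11650 to 16890 CPM in Llgl cKO Trp53 het. Fibroblast markers summed to 27.8 to 143 CPM in Control and 172 to 239 CPM in Llgl cKO Trp53 het. In Llgl cKO they summed to 122 to 209 CPM and in Trp53 het to 32.6 to 138 CPM. Most of the sum was Dcn, with means of 58.2 CPM in Control and 186 CPM in Llgl cKO Trp53 het. Of 5 fibroblast markers tested, 3 had fitted changes above 0 against Control and 2 below, and the mean log2 scores of these groups overlapped. T cell markers summed to 14.99 to 24.4 CPM in Control, 2.34 to 6.78 CPM in Llgl cKO, 7.45 to 35.55 CPM in Trp53 het and 1.51 to 12.2 CPM in Llgl cKO Trp53 het. They were thus low in Llgl cKO too. The suprabasal keratinocyte sums overlapped between all groups. The part of these cell types, and of RNA quality, in the lower Elovl6, Fasn, Acss2, Scd1 and Soat1 levels was not tested. With the sex of the library as a term, the Elovl6 changes were -0.97 against Control (adjusted p = 0.0318) and -1.18 against Trp53 het (adjusted p = 0.0175).

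**Figure D5:**
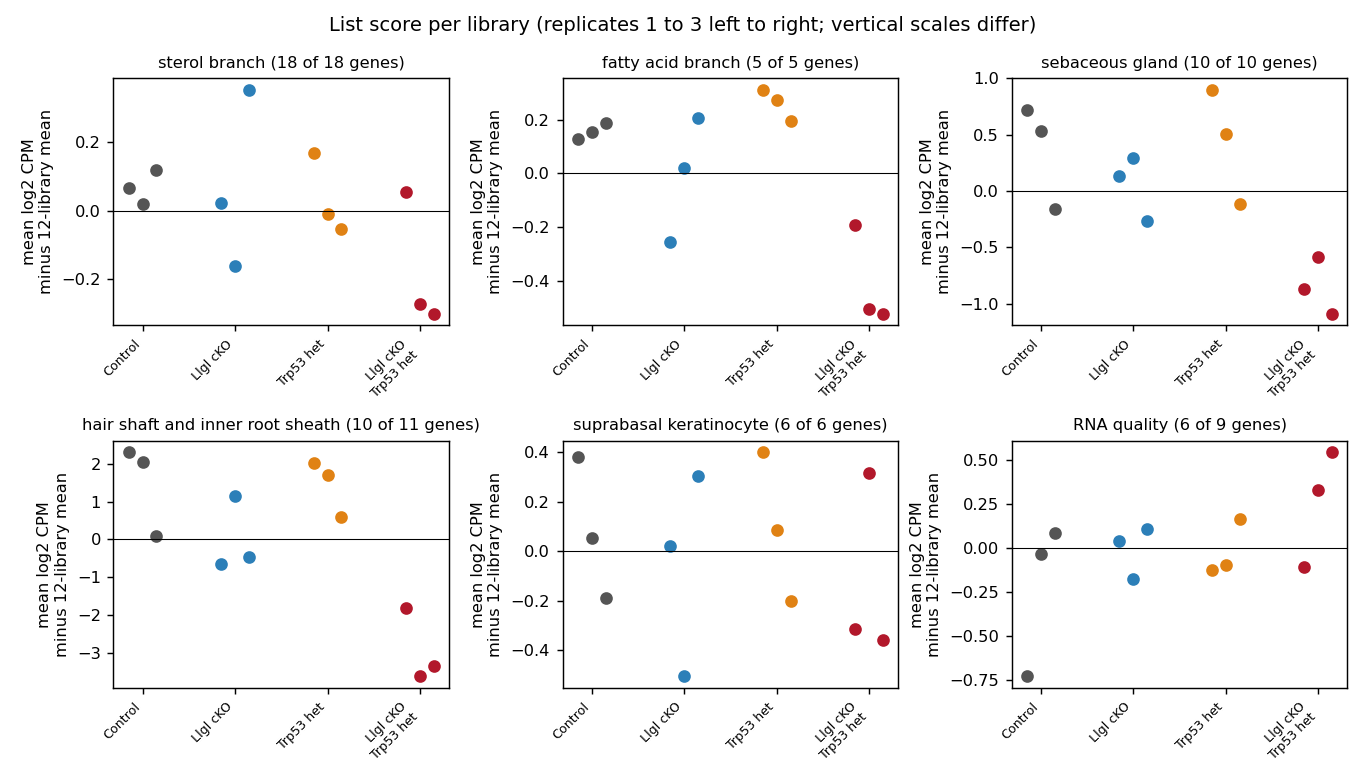
Mean log2 CPM of 6 gene lists minus their 12-library mean, per library and group, on vertical scales that differ between panels. The 3 Llgl cKO Trp53 het libraries are the lowest for the sebaceous gland (-1.09 to -0.59) and hair lists, while in the fatty acid branch Llgl cKO 1 (-0.25) lies among them and in the sterol branch the groups overlap.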

How the data were processed

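The authors deposited 1 table of unnormalized counts, by gene and library, for the 12 libraries. Per the submitters' processing notes, the tools were featureCounts 1.6.4, the aligner STAR and DESeq2 2.11.40.8, and the build was GRCm38. Per the labels' protocols, libraries came from a stranded mRNA kit. The annotation release, strand setting and filters are not given in the sources used here. Groups were taken from the genotype labels.

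The tests used edgeR 4.0.16 under R 4.3.3: TMM scaling, filterByExpr (minimum count 10), and 1 robust quasi-likelihood fit of group means over 12 libraries (8 residual degrees of freedom), tested on simulated data. p-values were adjusted by Benjamini-Hochberg over 14582 tested genes, and a gene was called below 0.05. The biological coefficient of variation was 23.8%. Log2 CPM used a prior count of 2. Exon lengths came from a GRCm38 annotation (GENCODE), as the union of exons. DESeq2 1.42.0, other scalings and filters, sex as a term, a replicate block, fits of the compared groups only, each library left out, and Control 3 with Trp53 het 3 left out were alternatives. Named genes were those called, filled up to 3 per comparison by smallest p, and the related genes called in any comparison. The genes, lists and tests were chosen with earlier results of these data known. As a check on pairing, deviations of same-numbered libraries correlated at 0.619, 0.207 and 0.824 between Control and Trp53 het. In each other pair of groups at least 1 correlation was below 0.1, and the labels name no shared litter or batch.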

Additional observations from a re-analysis of the deposited data

How the results depend on the processing

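Of 165 alternative counts of called genes, 145 stayed within 1.5 times the main count, and of 165 alternative medians 162 moved by less than the spread between mice (0.156 on the log2 scale). The 145 include every count of the comparisons with 0 genes called, and the 20 counts that moved further all lay in the comparisons with a call. No direction of a called value reversed. In Llgl cKO Trp53 het against Control, 1 gene was called, against 2 with DESeq2 and 0 to 2 on leaving out single libraries. Against Trp53 het 1 gene was called, against 3 with DESeq2, 2 with the replicate block (Elovl6 and Fasn, adjusted p = 0.0493 for the latter), 2 without both Control 3 and Trp53 het 3, and 0 to 3 on leaving out single libraries. In the average Llgl difference 1 was called, against 3 with DESeq2, 3 without both Control 3 and Trp53 het 3 (Elovl6, Dhcr7 and Fasn), and 1 to 2 on leaving out single libraries. The median changes ran from -0.389 to -0.192 against Trp53 het, from -0.429 to -0.11 against Llgl cKO and from -0.4 to -0.116 in the interaction when single libraries were left out. The lowest of each was without Llgl cKO Trp53 het 1. Replicate numbers met the pairing criterion only between Control and Trp53 het, where the block left 0 genes called. The 0 counts in the remaining comparisons stayed at 0 in each alternative.

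With 3 mice per group and 8 residual degrees of freedom, intervals of single genes were wide: the Insig1 difference against Control ran from -1.30 to -0.05. A p that misses the threshold does not show equal levels. Idi1 and Acss2 had the fewest counts (36 and 67 in their lowest libraries). The Soat1 call against Control was also lost with no low-count filter (adjusted p = 0.0677), with sex as a term (0.0515) and in a fit of the compared groups alone (0.0678), and the Npc2 call with no filter (0.0752) and in the latter fit (0.0918). Across all genes, the count called against Control was 182 by edgeR and 627 by DESeq2.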

Other observations

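Of the 42 related genes tested, 10 had an unadjusted p below 0.05 in the average Llgl difference, where 18.2% of all genes did. Of these, 8 were not called, and 3 of the 8, chosen after their values were seen, are given here. Insig2, which like Insig1 retains SREBP in the endoplasmic reticulum, was at 170.4, 157 and 109 CPM in Control, 104, 109.8 and 107 CPM in Llgl cKO, 159, 161 and 114 CPM in Trp53 het and 84.1, 113 and 76.7 CPM in Llgl cKO Trp53 het. Control 3 and the library labelled Trp53 het 3 lay near the Llgl cKO values, and the average log2 change was -0.55 (SE 0.14, adjusted p = 0.0563 by edgeR). Mbtps1, the protease that makes the first cut in SREBP, was higher in fitted value (0.28, SE 0.08, adjusted p = 0.0961). Acacb, the mitochondrial counterpart of Acaca, had a fitted value of -0.74 (SE 0.26, adjusted p = 0.15).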
